A study of Mus musculus with 5 samples.

Results

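The mitochondrial ribosomal proteins were taken as the genes whose annotated symbol starts with Mrpl or Mrps and goes on with a digit. The rule used symbols alone, and it was set with earlier results of these data known. It found 76 genes with 110 probes, among 16593 named genes on arrays of 25697 probes, and by symbol 47 of them belonged to the large and 29 to the small subunit. In the 22 members with more than 1 probe, the brightest on average stood for the gene. Structures place the products of Mrps18a and Mrps30 in the large subunit, and Mrps36 is no longer counted as a ribosomal protein, so these symbols were also regrouped as an alternative. Mrpl41 and Mrpl44 were not analysed here.

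The ribosome of the mitochondrion translates the few messages encoded in mitochondrial DNA, which specify subunits of the respiratory chain and the ATP synthase. Its RNAs are made in the mitochondrion, but all of its proteins are encoded in the nucleus, made in the cytosol and imported. Some have counterparts in bacterial ribosomes and others are found in mitochondria alone. Mouse epiblast stem cells, which resemble the epiblast after implantation, rely more on glycolysis and less on respiration than mouse embryonic stem cells.

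RNA came from 5 cultures of the mouse epiblast stem cell line E3, with 1 array for each. The agents were added for 12 h. PD cells received PD0325901 at 1 µM, which inhibits the kinase MEK, CH cells received CHIR99021 at 3 µM, which inhibits the kinase GSK3, LIF cells received the cytokine leukemia inhibitory factor at 1000 U/ml, and PCL cells received all 3 at these doses. Untreated cells were given the same KSR medium with no supplement for 12 h. All 5 cultures had grown with FGF2 at 5 ng/ml on inactivated CF1 mouse embryonic fibroblasts, and the labels name no FGF2 in the medium of the last 12 h, so its absence is shared. All results describe 1 line.

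No replicate exists, so no test was possible. The errors given are standard errors over the beads of a probe, combined over the 2 arrays of a difference, and they leave out any spread between cultures. Levels are log2 intensities after background correction and quantile normalization of the 5 arrays together, and detection means a detection p-value under 0.01 on that array. Differences are log2 of the treated over the untreated array. Every treatment was set against the same untreated array, so a high or low value there enters all 4 differences, which are therefore given side by side and not related to each other.

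Between 10389 probes (PCL) and 10898 probes (LIF) were detected per array, and the median bead error of detected probes lay between 4.13% and 4.39%. The LIF array stood apart: 106 of the 8138 genes detected on any array lay at least 2-fold below each of the 4 other arrays there (1.30%), against 1 on the PD array (0.0123%) and 0 on the CH, PCL and untreated arrays. Targets of the agents stood as labelled, with Egr1 of the MEK pathway at least 6.57-fold lower with PD, the Wnt target Sp5 at least 7.35-fold higher with CH, and the STAT3 target Socs3 at 1.79 ± 0.10 with LIF. Of 9 epiblast stem cell markers, 9 were detected on every array. Of 24 feeder fibroblast markers, 16, 16, 16, 14 and 17 were detected on the PD, CH, LIF, PCL and untreated arrays, while Col1a2, Col3a1, Col5a2, Postn, Pdgfrb and S100a4 were detected on none. In such bulk RNA, fewer cells of a type and less RNA per cell cannot be told apart.

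Most mitochondrial ribosomal protein genes were read on every array. Of the 76 members, 68 were detected on all 5 arrays, 3 on some (Mrpl15, Mrpl39 and Mrpl51), and 5 on none (Mrpl19, Mrpl21, Mrpl32, Mrps14 and Mrps36). The last 5 were not well above background, and no difference is given for them. On single arrays 70 members were detected in PD and in LIF cells, 69 in CH and in PCL cells, and 69 in untreated cells. The probes of highest mean level were those of Mrpl17, Mrps24, Mrpl28, Mrpl23 and Mrps30, and the dimmest detected ones those of Mrpl15, Mrpl39, Mrpl51, Mrpl57 and Mrpl45, which ranks probes and not amounts of message.

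As a group, the members stood lowest on the LIF array and next lowest on the PD array. Each member's level was set against its own mean over the 5 arrays. The median over 71 members was -0.07 on the PD array, 0.14 on CH, -0.25 on LIF, 0.08 on PCL and 0.18 in untreated cells. The same medians over all 8138 detected genes lay between -0.01 and 0.03. The LIF array was the lowest of the 5 for 41 members, where it was the lowest for 20.3% of all genes, and the PD array was the lowest for 20 members, where it was so for 20.9% of all genes. CH was the lowest array for 4 members (19.8% of all genes), PCL for 4 (18.6%) and untreated for 2 (20.3%). The untreated array was the highest for 32 members (18.7% of all genes), CH for 15 (17.4%), PCL for 11 (16.7%), PD for 7 (20.7%) and LIF for 6 (26.5%).

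**Figure D1:**
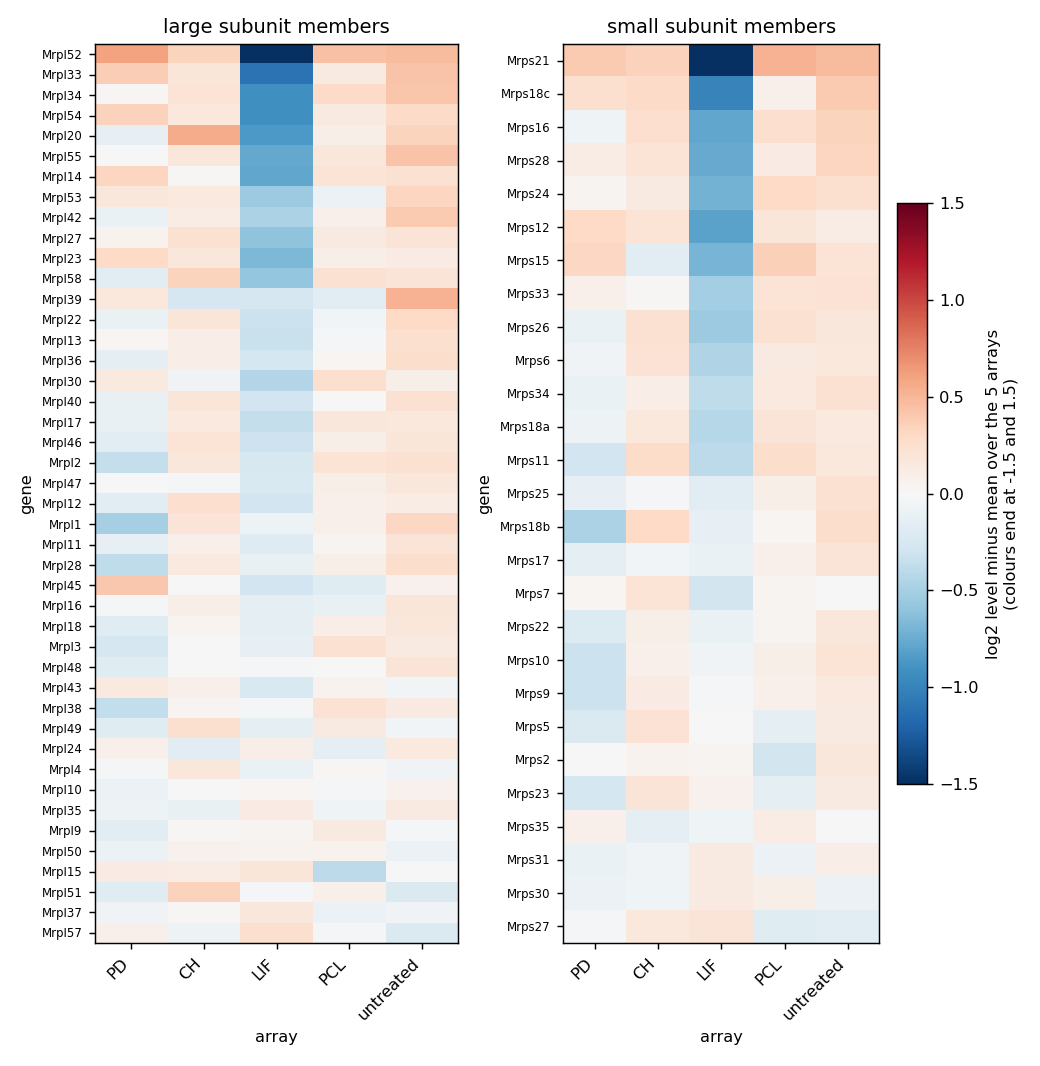
Level of each of the 71 detected members on the 5 arrays, as log2 level minus the gene's own mean over the arrays, with large subunit members on the left and small subunit members on the right, ordered by their difference between LIF and untreated. Blue marks levels below and red levels above the mean; the LIF column is the lowest for 41 members and the PD column for 20.

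With PD, the members were slightly lower than in untreated cells. The median difference over the 70 members compared was -0.21, where the median over all 7761 genes compared was 0.00. Below untreated stood 53 members, where 49.6% of all genes did so, 16 stood above, and Mrps30 had the same level on both arrays. The mean of the CH, LIF and untreated arrays was also used in place of the untreated array alone. Against it the median was -0.08, where that of all genes was 0.01, and 42 of 70 members stood below (48.2% of all genes). No member was 2-fold away in either direction, where 0.451% of all genes were at least 2-fold lower and 0.490% at least 2-fold higher. The difference was lower by more than 1.96 bead standard errors for 39 members (21.1% of all genes) and higher by as much for 3 (23.1% of all genes). The quartiles of the members lay 0.35 apart, and those of all genes 0.46.

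**Figure D2:**
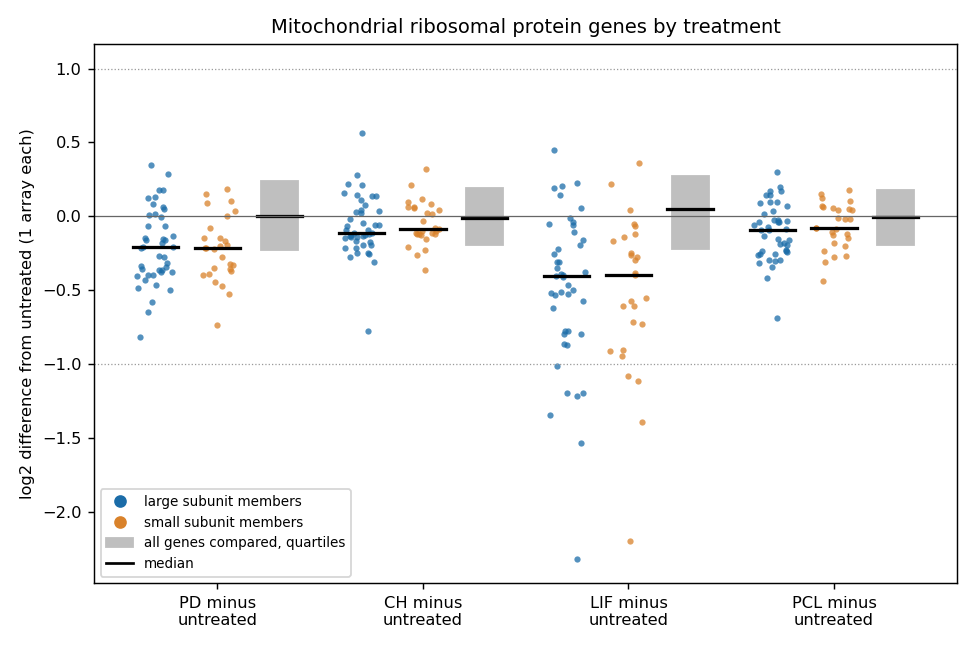
Difference from untreated of each member compared (log2, 1 array against 1), for the large subunit in blue and the small subunit in orange, beside the quartiles of all genes compared in grey. Black bars are medians and dotted lines mark 2-fold; the members' points lie mostly below 0 with PD and reach furthest down with LIF.

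The members furthest below untreated with PD were Mrpl1, Mrpl28, Mrpl2 and Mrps10, which have bacterial counterparts, and Mrps18b, of a family related to a bacterial small subunit protein. Mrpl1 had a level of 8.41 in PD cells, 9.10 in CH, 8.83 in LIF and 8.99 in PCL, against 9.23 in untreated cells, a difference of -0.82 ± 0.11 for PD. Mrps18b read 9.43, 10.20, 9.78 and 9.93 with PD, CH, LIF and PCL, against 10.16 in untreated cells, a difference of -0.73 ± 0.09 for PD, while its other probe gave -0.30. Mrpl28 stood at 11.07, 11.60, 11.34 and 11.54 with PD, CH, LIF and PCL, against 11.72 in untreated cells. In these 3 genes the PD array was the lowest of the 5, below the LIF array too. Mrpl28 differed by -0.64 ± 0.08 with PD, Mrpl2, a protein near the peptidyl transferase centre, by -0.58 ± 0.08, and Mrps10 by -0.52 ± 0.11 with a second probe at -0.46.

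Members above untreated with PD were few, and their differences were smaller. Mrpl45, which lies at the exit of the peptide tunnel, stood at 0.35 ± 0.22, and Mrpl57 at 0.29 ± 0.21, both from dim probes with large bead errors. Mrps12, a protein of the decoding centre, stood at 0.18 ± 0.07, Mrpl43 at 0.18 ± 0.09 and Mrpl23 at 0.18 ± 0.06. Mrpl37 gave 0.01 from its brightest probe and -0.51 from its other.

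The same PD array was also set against the other treated arrays, which repeats its reading and adds no independent measurement. PD minus CH had a median of -0.17 over 71 members, with 51 below CH (48.4% of all genes), and PD minus PCL a median of -0.13, with 52 below PCL (48.1% of all genes). PD minus LIF had a median of 0.14, so the PD array stood above the LIF array for these genes. PCL contains the same dose of PD0325901, and its own difference from untreated is given further on. Markers of the feeder fibroblasts stood higher with PD. Over 17 feeder markers compared, the median difference was 0.47 with PD, 13 stood above untreated, and the markers' summed linear level was 12071 for PD, 8600 for CH, 9026 for LIF and 10337 for PCL, against 8118 in untreated cells. Lox stood at 2.12 ± 0.11, Timp3 at 1.48 ± 0.15 and Fbln2 at 1.11 ± 0.10, while 4 markers stood lower: Mgp at -1.03 ± 0.20, Vim at -0.06 ± 0.10, Prrx1 at -0.01 ± 0.21 and Pdgfra, at least 1.30-fold lower since it was not well above background with PD. Over the 9 epiblast stem cell markers the median difference was 0.16 with PD, with 6 above untreated and 3 below. The furthest from untreated were Utf1 at -1.12 ± 0.12 and Fgf5 at -0.91 ± 0.12, and the highest was Nanog at 0.61 ± 0.09. The summed linear level of these 9 markers was 24343 for PD, against 22830 in untreated cells. Such sums weigh the brightest probes most. These were Dnmt3b, at a log2 level of 13.70 with PD and 13.54 in untreated cells, and among feeder markers Acta2, at 12.42 and 11.67. The part of feeder cells in the lower level of the members was not tested.

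With LIF the members were lower still, and more unequally so. The median difference over 71 members was -0.40, where that of all 7796 genes was 0.05, and 62 members stood below untreated, where 44.7% of all genes did. At least 2-fold lower were 11 members, 7 of the large and 4 of the small subunit, where 2.81% of all genes were, and 0 members were at least 2-fold higher (0.154% of all genes). Under median scaling 55 of 71 members stood below untreated (30.4% of all genes), with a median of -0.36 where that of all genes was 0.19, and 7 members were at least 2-fold lower. Without background correction 7 were as well, and over all alternatives the count ranged from 7 to 13. The difference was lower by more than 1.96 bead standard errors for 49 members (20.0% of all genes) and higher by as much for 5 (26.0%). The quartiles of the members lay 0.64 apart, against 0.50 for all genes and 0.35 for the members with PD.

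The lowest with LIF were Mrpl52, a mitochondria-specific protein of the large subunit, and Mrps21, a small subunit protein with a bacterial counterpart. Mrpl52 read 9.80 in PD cells, 9.54 in CH, 7.35 in LIF and 9.63 in PCL, against 9.67 in untreated cells, so that LIF was 4.98-fold lower (-2.32 ± 0.09). Mrps21 read 9.21, 9.17, 7.10 and 9.33 with PD, CH, LIF and PCL, against 9.29 in untreated cells, so that LIF was 4.57-fold lower (-2.19 ± 0.15). For both genes the other 4 arrays lay within 0.3 log2 units of each other, and the LIF array alone was far below.

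Another 3 members, Mrpl33, Mrps18c and Mrpl54, were also at least 2-fold below all 4 other arrays with LIF, as 1.30% of all genes were. Mrpl33, a small protein with a bacterial counterpart, stood at 10.68, 10.50, 9.22 and 10.45 with PD, CH, LIF and PCL, against 10.75 in untreated cells, a difference of -1.53 ± 0.07 for LIF, and its second probe gave the same value to 2 decimals. Mrpl54 stood at 10.40, 10.21, 9.13 and 10.19 with PD, CH, LIF and PCL, against 10.35 in untreated cells, a difference of -1.22 ± 0.09 for LIF. With PD, CH and PCL, Mrpl33 differed from untreated by -0.07 ± 0.06, -0.25 ± 0.06 and -0.30 ± 0.06. Mrpl54 differed by 0.05 ± 0.08, -0.14 ± 0.08 and -0.15 ± 0.08 with these agents. The remaining differences for LIF past 2-fold were -1.39 ± 0.09 for Mrps18c, -1.34 ± 0.09 for Mrpl34, -1.20 ± 0.14 for Mrpl20, -1.19 ± 0.15 for Mrpl55, -1.12 ± 0.10 for Mrps16, -1.08 ± 0.10 for Mrps28 and -1.01 ± 0.10 for Mrpl14. Just inside 2-fold lay Mrps24 at -0.94 and Mrps12 at -0.91.

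**Figure D3:**
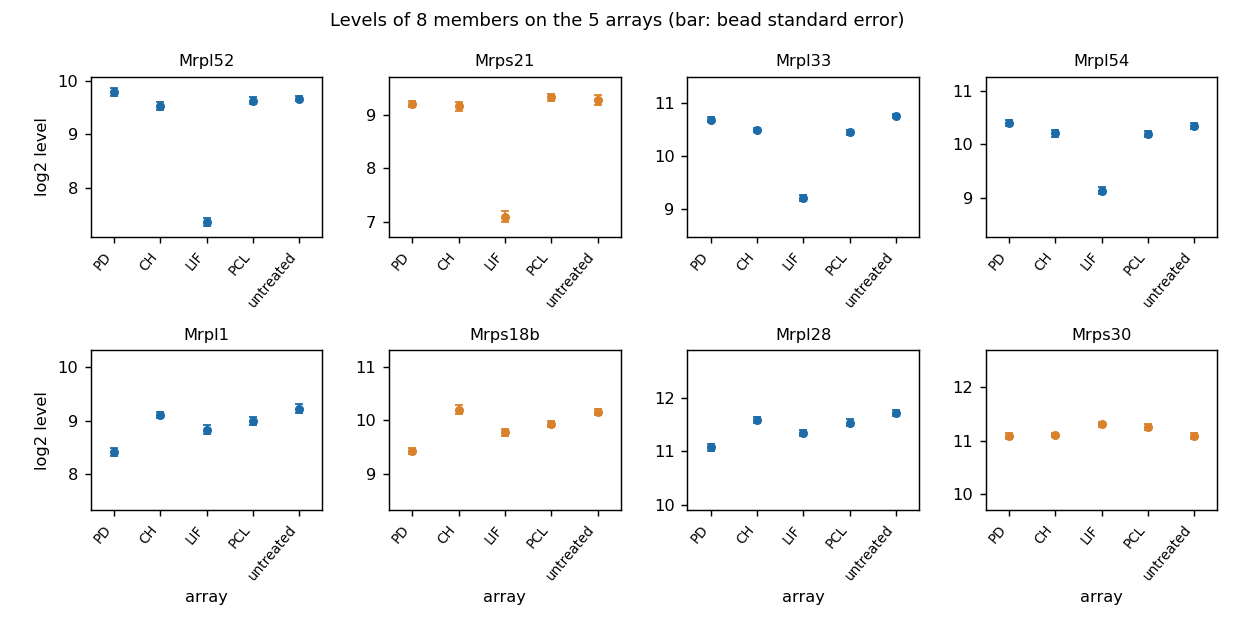
Log2 level of 8 members on the 5 arrays, with the bead standard error as the bar; every panel has its own level axis, so levels are to be read within a gene only. Mrpl52, Mrps21, Mrpl33 and Mrpl54 have 1 low point, with LIF, while Mrpl1, Mrps18b and Mrpl28 are lowest with PD and Mrps30 is nearly level.

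A few members stood above untreated with LIF. Mrpl57 had 0.45 ± 0.17, Mrps27, a protein with RNA-binding repeats, 0.36 ± 0.17, Mrpl37 0.23 ± 0.08 and Mrps30 0.22 ± 0.07. Mrpl51 was not well above background in untreated cells, and its measured difference of 0.21 gives no fold. The narrowest ranges over the 5 arrays among members detected on all of them were 0.16 for Mrpl50, 0.16 for Mrpl10, 0.22 for Mrps30, 0.24 for Mrps31 and 0.25 for Mrps35, and the widest were 2.44 for Mrpl52, 2.24 for Mrps21, 1.53 for Mrpl33, 1.42 for Mrpl20 and 1.39 for Mrps18c.

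PD minus CH and LIF minus PCL share no array. Across the 68 members detected on all arrays, Spearman's rho between these 2 differences was -0.11, and across the 6732 genes so detected it was 0.21, which describes genes on 4 arrays and not replicates. In PD minus CH, 6 of the 11 members at least 2-fold lower with LIF and 44 of the other 57 stood below 0, where 48.8% of all genes detected on all arrays did.

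The promoters of Mrpl52, Mrps21 and Mrpl34, all far below untreated with LIF, are shown with that of Mrpl1, the furthest below with PD, so that their letters can be set side by side. Each line gives the 100 bases before the annotated gene start, 5′ to 3′ on the gene's strand, from RefSeq on GRCm38.p6, and capitals mark a match to 1 of the motifs searched. Mrpl52 lies at chr14:54426809-54426908 on the + strand, Mrps21 at chr3:95871515-95871614 on the - strand, Mrpl34 at chr8:71464826-71464925 on the + strand and Mrpl1 at chr5:96210015-96210114 on the + strand.
Mrpl52: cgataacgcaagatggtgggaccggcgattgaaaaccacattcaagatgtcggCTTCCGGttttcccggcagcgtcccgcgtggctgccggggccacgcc
Mrps21: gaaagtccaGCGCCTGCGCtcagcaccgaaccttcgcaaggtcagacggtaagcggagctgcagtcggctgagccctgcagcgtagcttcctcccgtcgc
Mrpl34: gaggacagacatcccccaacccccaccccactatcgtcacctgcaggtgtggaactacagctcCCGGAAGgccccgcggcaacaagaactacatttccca
Mrpl1: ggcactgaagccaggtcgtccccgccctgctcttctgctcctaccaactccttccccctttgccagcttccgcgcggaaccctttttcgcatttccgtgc
The letters in capitals are CCGGAAG, a core of sites for ETS factors such as GABPA, read on the opposite strand in Mrpl52, and a core of NRF1 sites in Mrps21, searched with any base as the fifth of its letters. Mrpl1 held no match in its window.

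Promoter windows from 250 bases before to 50 after the gene start were found for 67 of the 76 members and were searched on both strands. CCGGAAG was in 26 of the 67 (38.8%), against 21.3% of 6653 detected genes and 9.93% of 27018 genes with a window. The NRF1 core was in 12 (17.9%), against 12.4% of detected genes, and AAGATGGC, a core of YY1 sites, in 12 (17.9%), against 5.89% of detected genes. TGACGTCA, the CREB site, was in 2 (2.99%), against 3.73%, and TATAAA, the core of the TATA box, in 5 (7.46%), against 8.63%. Members with CCGGAAG had a median of -0.62 with LIF (25 members) and those without it -0.39 (38 members), while with PD the medians were -0.24 with and -0.21 without it. With LIF members with the NRF1 core (11) had a median of -0.51 and those without it -0.40. Members with AAGATGGC (11) had -0.53 with LIF and those without it -0.40. The 2 members with TGACGTCA had -0.21 with LIF and those without it -0.41, and the 5 with TATAAA -0.31, against -0.41. With PD the medians with and without the motif were -0.16 and -0.22 for the NRF1 core, and -0.20 and -0.27 for AAGATGGC. They were -0.18 and -0.24 for TGACGTCA, and -0.32 and -0.21 for TATAAA. The windows of 6 of the 9 matched members at least 2-fold lower with LIF held CCGGAAG, against 38.8% of the 67 members and 21.3% of detected genes. Of these 9 members, 2 held the NRF1 core and 0 held AAGATGGC, TGACGTCA or TATAAA. These counts describe letters in a window and not binding.

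Mrpl46 and Mrps11, 1 of each subunit, are transcribed away from each other, and 41 bases separate their annotated starts at chr7:78783090-78783130 on GRCm38.p6, read on the + strand, with Mrps11 beginning after the last base.
Mrpl46-Mrps11: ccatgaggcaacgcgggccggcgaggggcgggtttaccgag
With PD and LIF both genes, a pair chosen after its values were seen, had similar differences. All members compared had quartiles of -0.37 and -0.02 with PD and of -0.78 and -0.15 with LIF. Any part of the shared stretch was not tested. Mrpl46 stood at -0.34 ± 0.07 with PD and -0.50 ± 0.08 with LIF, and Mrps11 at -0.45 ± 0.15 with PD and -0.55 ± 0.14 with LIF. With CH and PCL, Mrpl46 had 0.02 and -0.10, and Mrps11 had 0.12 and 0.10 from its brightest probe and -0.06 and -0.11 from the other.

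With CH the members' median difference from the untreated array lay nearer to that of all genes. The median over 70 members was -0.10, against -0.01 for all 7699 genes, 45 members stood below untreated (51.2% of all genes), and none was 2-fold lower (0.390% of all genes) or higher (0.572%). Scaling the arrays by their medians in place of quantile normalization left 33 of 70 members below untreated (37.5% of all genes) and a median of 0.00305, where that of all genes was 0.09. Against the mean of the PD, LIF and untreated arrays the median was 0.18, where that of all genes was 0.00335. Below that mean stood 13 of 70 members (49.6% of all genes). Lower by more than 1.96 bead standard errors were 14 members (18.2% of all genes) and higher by as much were 6 (18.4%). The lowest were Mrpl39, at least 1.31-fold lower since it was not well above background with CH, Mrps15 at -0.36 ± 0.15, Mrpl24 at -0.31 ± 0.11, Mrpl42 at -0.28 ± 0.08 and Mrps25 at -0.26 ± 0.16, whose other probes gave 0.28 and -0.07. The highest were Mrpl51, at least 1.28-fold higher, Mrps27 at 0.32 ± 0.18, Mrpl49 at 0.28 ± 0.08, Mrpl20 at 0.22 ± 0.13 and Mrpl4 at 0.21 ± 0.10. Of the 3 other probes for Mrpl49, 1 gave 0.25 and the others -0.15 and -0.27.

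Against the untreated array, the members' median with all 3 agents was also nearer to that of all genes than with PD or LIF alone. With PCL the median over 70 members was -0.08, against 0.00 for all 7652 genes, and 48 members stood below untreated (50.4% of all genes), with none 2-fold lower (0.680% of all genes) or higher (0.706%). Under median scaling the median was -0.15 and 56 of 70 members stood below untreated (55.0% of all genes). Against the mean of the 4 other arrays it was 0.11, where that of all genes was -0.00178, with 16 of 70 members below (50.3% of all genes). For PD, the arrays without the agent as baseline gave -0.08, against 0.01 for all genes. Lower by more than 1.96 bead standard errors were 19 members (18.3% of all genes) and higher 4 (17.3%). Mrpl39 was at least 1.27-fold lower, Mrps2 stood at -0.44 ± 0.15, Mrpl53 at -0.42 ± 0.07, Mrpl22 at -0.34 ± 0.08 and Mrpl42 at -0.32 ± 0.07. Mrpl51 was at least 1.06-fold higher, Mrpl57 stood at 0.20 ± 0.17, Mrps30 at 0.18 ± 0.08, Mrpl49 at 0.17 ± 0.08 and Mrpl30 at 0.17 ± 0.09.

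PCL and LIF cells both received LIF, yet their members differed. PCL minus LIF had a median of 0.29 over 70 members, against -0.05 over 7712 genes. Above LIF stood 57 members (44.9% of all genes), 9 were at least 2-fold higher (3.02% of all genes) and 0 at least 2-fold lower (0.882%).

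The medians of the 2 subunits lay 0.03 log2 units or less apart in every comparison. With PD the median was -0.21 for the large and -0.22 for the small subunit, with CH -0.11 and -0.08. For LIF it was -0.41 in the large and -0.40 in the small subunit, and for PCL -0.09 and -0.08. Whether the subunits differ could not be tested. Members with a bacterial counterpart had medians of -0.21 with PD (40 members) and -0.44 with LIF, with 38 of 40 below untreated. Mitochondria-specific members had -0.20 with PD (25 members) and -0.31 with LIF, with 20 of 26 below. With LIF 62 of all 71 members and 44.7% of all genes stood below untreated. Some members were placed in neither the bacterial counterpart group nor the mitochondria-specific group, and a difference between these groups was not tested.

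Members with several probes allowed a check within the arrays. Where 2 probes of a gene were both detected, they had the same sign in 22 of 23 pairs with PD and 21 of 22 with LIF, but in 14 of 23 with CH and 15 of 23 with PCL. Their median gap was 0.16 with CH, 0.10 with LIF and 0.09 under PD or PCL, and no pair was over 1 log2 unit apart. Opposite signs were seen for Mrpl37 with PD and for Mrpl10 with LIF (-0.04 and 0.14). With CH or PCL they were seen for Mrpl3, Mrpl10, Mrpl43, Mrpl48, Mrpl49, Mrps5, Mrps7, Mrps11, Mrps18b, Mrps25 and Mrps26.

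**Figure D4:**
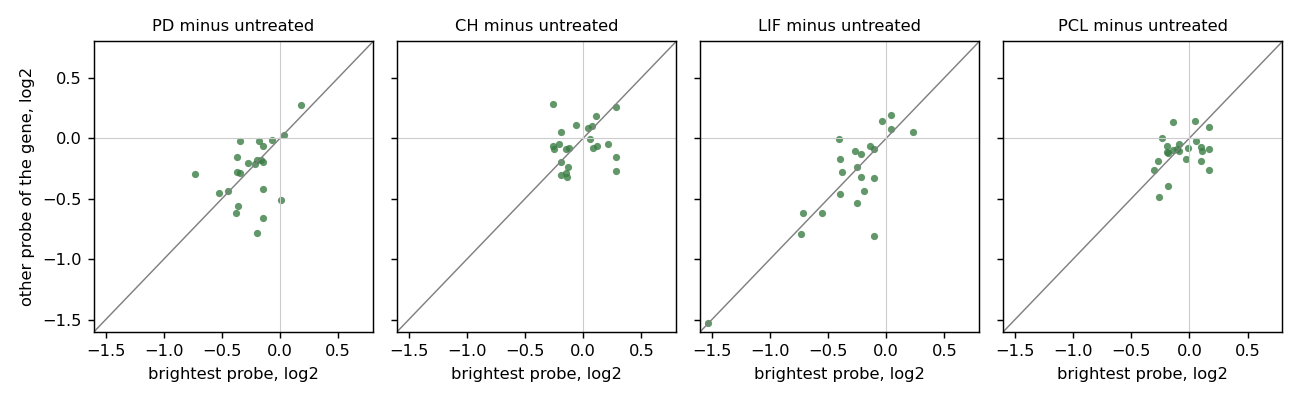
Difference from untreated given by the brightest probe of a member (x axis) and by another probe of the same gene (y axis), both log2 and both detected, in 1 panel per treatment, with the line of equality. Most pairs lie below 0 on both axes with PD and LIF and scatter around 0 with CH and PCL.

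Mitochondrial ribosomal protein genes are short, and short genes in general stood lower than long ones on all 4 treated arrays relative to the untreated array that they share. The median genomic span was 7749 bp over 71 members, against 21088.5 bp over 8134 detected genes. Detected genes were put into 10 groups of equal size by span. In the group of shortest span, 20 members had a median of -0.57 with LIF and -0.24 with PD, against -0.29 with LIF and -0.14 with PD for the other genes. With CH these 20 members had a median of -0.09 and with PCL -0.04, against -0.13 with CH and -0.05 with PCL for the other genes. Against the median of their own span group, 56 of 71 members stood lower with LIF and 50 of 71 with PD, and the members' median after subtracting it was -0.36 with LIF and -0.15 with PD. Of the 11 members at least 2-fold lower with LIF, 7 lay in the 2 groups of shortest span, which held 32 of the 71 members. Mrps28, at -1.08 with LIF, had the longest span of the members, 121712 bp. Across members, Spearman's rho of span with the difference was 0.19 for LIF and -0.11 for PD, against 0.33 for LIF, 0.28 for PD, 0.18 for CH and 0.12 for PCL across all detected genes.

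**Figure D5:**
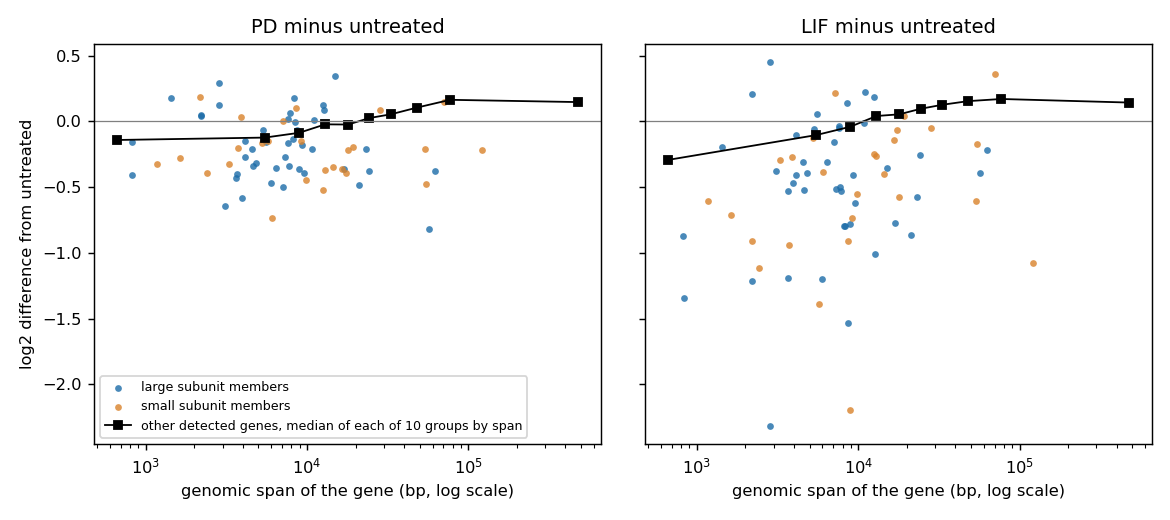
Difference from untreated (log2) of the 71 detected members against the genomic span of the gene (bp, log scale), for PD and LIF, with the medians of the other detected genes in 10 groups by span as black squares. Below the median of their own span group lie 50 of 71 members with PD and 56 of 71 with LIF.

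Other ribosomal and respiratory genes gave the members a frame. The respiratory chain and ATP synthase, whose subunits the mitochondrial ribosome in part makes, had 78 nuclear genes on the array. Their median was -0.15 for PD, -0.12 for CH, -0.94 for LIF and -0.07 for PCL, and 33 of 68 were at least 2-fold lower with LIF. Of the cytosolic ribosomal proteins, 53 of 58 were compared, with medians of -0.02 for PD, -0.06 for CH, -0.44 for LIF and -0.01 for PCL, and 10 were at least 2-fold lower with LIF. With PD the median of the mitochondrial ribosomal proteins was thus -0.21, beside -0.15 for respiratory and -0.02 for cytosolic ribosomal genes. The genes whose levels over the 5 arrays were most like Mrpl52, by distance between centred levels among 8138 genes, were Dpm3 (0.135), the complex I subunit Ndufa3 (0.148) and Tomm7 of the import pore (0.181). Those most like Mrps21 were H2ac12 (0.134), Dpm3 (0.249) and Mrpl52 (0.255).

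The other lists of mitochondrial gene expression had medians nearer 0 with LIF than the ribosomal proteins. Factors that assemble the ribosome or modify its RNA had medians of -0.21 with PD, with 11 of 16 below untreated, 0.06 with CH, -0.16 with LIF, with 10 of 15 below, and -0.07 with PCL. Among them Tfb1m, which methylates the small ribosomal RNA, stood at -0.60 ± 0.12 with PD, -0.56 ± 0.12 with CH and -0.54 ± 0.14 with PCL, and Mrm3, which methylates the large ribosomal RNA, at -0.63 ± 0.14 with PD and -0.62 ± 0.16 with LIF. Translation factors (10 compared with each agent) had medians of -0.06 with PD, 0.07 with CH, 0.02 with LIF and 0.09 for PCL, and among them the initiation factor Mtif3 stood at 0.51 ± 0.19 with CH and 0.56 ± 0.17 with PCL. Mitochondrial tRNA synthetases stood at -0.08 for PD, 0.09 for CH, 0.11 for LIF and 0.02 for PCL, with Iars2 at 0.50 ± 0.11 with LIF. None of the genes compared in these 3 lists was 2-fold away.

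Genes of mitochondrial transcription, DNA replication and RNA stability (10 genes) stood at medians of -0.01 for PD, 0.12 for CH, 0.12 for LIF and -0.08 for PCL. Slirp and Lrpprc, whose products bind mitochondrial messages as a complex, stood apart with LIF, at -2.10 ± 0.07 for Slirp and 0.77 ± 0.12 for Lrpprc. Polg, the polymerase of mitochondrial DNA, stood at 0.67 ± 0.17 with PD. Of the nuclear regulators, 6 of 11 were compared, and Nrf1 itself was at -0.25 ± 0.09 with PD and 0.38 ± 0.10 with CH. The coactivator Ppargc1b was at 0.57 ± 0.14 with PD and 1.00 ± 0.15 with PCL. In LIF cells Nrf1 differed from untreated by -0.11 ± 0.11, Gabpa by -0.18 ± 0.19 and Ppargc1b by -0.03 ± 0.17. There Esrra stood furthest away at -0.46 ± 0.13, while Esrrb was at 0.35 ± 0.13 and Gabpb1 at 0.06 ± 0.13. Yy1 was not detected on any array. Of ribosomal proteins with other symbols, 3 of 4 were compared: with LIF the short Chchd1 stood at -0.71 ± 0.07 and Dap3, a small subunit protein, at 0.36 ± 0.06.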

How the data were processed

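Total RNA from 5 cultures was measured on 5 Illumina bead arrays, 1 per condition, labelled with Cy3 after 12 h of in vitro transcription from 400 ng of RNA, per the labels' protocols. The deposited intensity of each probe is a mean over its beads on a linear scale, with a bead standard error and a detection p-value, per the file headers. Per the submitters' processing notes the scanner software was BeadStudio, of a version not given here. The authors also deposited a processed intensity table on a linear scale in whole numbers, with medians over listed probes of 100 (99.5 for PCL) and 51.1% of entries null for each array. How that table was scaled and background-subtracted stays unknown, and it served only as an alternative.

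The scanner intensities of all 5 arrays were processed as 1 set by the neqc function (limma 3.58.1, R 4.3.3): background inferred through the detection p-values, an offset of 16, quantile normalization, and log2. Dim probes give differences nearer 0 because of the offset. The step was tested on simulated data. Of the 25697 probes, 23978 had 1 gene symbol, 0 several and 1719 none, in a platform annotation table. Entrez identifiers of 23962 matched RefSeq for GRCm38.p6 and changed 0 symbols. Detection was set at a detection p-value under 0.01, and a comparison took in the genes detected on at least 1 of its 2 arrays. Where only 1 of the 2 arrays detected it, the fold is a bound against the lowest level among detected probes. Depth is not defined for arrays, and 1 array per condition limits the precision, so no test was run. Python 3.11.15, pandas 2.3.3, numpy 2.4.6, scipy 1.17.1 and matplotlib 3.10.9 handled tables, correlations and figures.

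The members named were, per treatment, the 5 most above and the 5 most below untreated, and every member at least 2-fold from untreated. The 5 with the widest and the 5 with the narrowest range over the arrays were named too. So were the 5 brightest, the 5 dimmest and members whose probes disagreed in sign. Other genes named were drawn from the treatment check genes, the cell type markers and the nuclear regulators. The 2 furthest genes of each other pathway list were drawn on too. Of all these genes only some are named. Neighbouring and promoter examples were chosen after their values were seen. The members and lists were chosen with earlier results of these data known. Alternatives covered the background correction, the offset, the scaling, the authors' table, the baseline, the detection filter, the probe rule, genomic span and the assignment of members to subunits.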

Additional observations from a re-analysis of the deposited data

How the results depend on the processing

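With 1 array per condition, no test, no replicate spread and no leaving out of a replicate was available, and bead errors cover the reading of an array only. No paired analysis was possible because each condition has 1 array. The median with PD stayed below 0 in every alternative run, between -0.23 and -0.08, as did that with LIF, between -0.44 and -0.34. The value of -0.08 for PD and that of -0.34 for LIF came from using the mean of the arrays without the agent as baseline, which takes in the low LIF array for PD and the PD array for LIF. The difference between subunits ranged from -0.07 to 0.06 over all treatments and alternatives, and took both signs with PD, CH and LIF. The median with CH was 0.00305 under median scaling, and 0.18 for CH and 0.11 for PCL against the mean of the arrays without the agent. The number of members at least 2-fold lower with LIF ranged from 7 to 13 over the alternatives. It was 7 without background correction and 7 under median scaling, where the median of all genes lay at 0.19. With an offset of 1, CH and PCL each had 1 member at least 2-fold lower. Leaving out the 11 members at least 2-fold lower with LIF, an alternative chosen after seeing the data, gave medians of -0.21 with PD, -0.06 with CH and -0.07 with PCL. Of 1158 values of named members, 1068 stayed within 1.96 of their own bead standard errors, 73 moved further and 17 that lay past it turned sign, all of these against the mean of the arrays without the agent: for PD Mrpl34 at 0.11, Mrpl53 at 0.19, Mrpl55 at 0.0510, Mrps16 at 0.00533 and Mrps24 at 0.15; for CH Mrpl14 at 0.0932, Mrpl33 at 0.28, Mrpl34 at 0.37, Mrpl42 at 0.17 and Mrpl53 at 0.17; for PCL Mrpl1 at 0.10, Mrpl20 at 0.10, Mrpl28 at 0.11, Mrpl33 at 0.16, Mrpl42 at 0.0904, Mrps18b at 0.0360 and Mrps18c at 0.10. The cause was not tested. Probes near background, such as those of Mrpl15, Mrpl39 and Mrpl51, limit what can be read of their genes.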
